A study of Mus musculus with 4 samples.

Results

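The matrix metalloproteinase (Mmp) gene cluster of mouse chromosome 9 was examined in an H3K4me3 HiChIP data set of C57BL/6J bone marrow-derived macrophages (BMDMs). Its 10 genes, in genome order Mmp13, Mmp12, Mmp1b, Mmp3, Mmp1a, Mmp10, Mmp8, Mmp27, Mmp20 and Mmp7, were chosen by name, out of 20755 autosomal genes with a protein-coding transcript. They occupy 427 kb from chr9:7272514 to chr9:7699585 (mm10). An interaction was counted for the cluster where at least 1 of its paired 5-kb bins held a transcription start site (TSS) of a member gene, or where both bins lay between the first and the last member. Of the 237102 listed interactions, 19 met this rule.

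HiChIP ligates DNA ends that lie close together in the nucleus and then pulls down the ligated fragments that carry a chosen protein or histone mark, here H3K4me3, a mark of active promoters. In every sample, C57BL/6J bone marrow was differentiated with M-CSF over 7 days, and the BMDMs were then given 20 ng/mL interleukin-4 (IL-4) for 24 h (n = 2) or left untreated as the basal condition (n = 2). The authors merged the reads of all 4 samples into 1 list, so IL-4 and basal BMDMs could not be compared here. In a differential analysis of the separate samples, the paper reports no interaction that differed significantly between the conditions. There is no error between replicates, and the depth per library is unknown. Each listed bin pair has an observed count of read pairs, an expected count from the authors' model and a false discovery rate (FDR), and the ratio below is observed over expected. Intervals on ratios are exact Poisson 95% intervals of the observed count with the expected count held fixed. They cover counting error only, and may be too narrow even for that, because PCR reads without molecular identifiers are not independent molecules. A contact in a few of the cells and a weak contact in all of them cannot be told apart in such bulk data. The caller tests a bin pair only if an H3K4me3 ChIP-seq peak lies in 1 or both of its bins, and the list does not say in which.

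Matrix metalloproteinases are zinc-dependent proteases, mostly secreted as inactive proenzymes, that cut collagens, elastin, proteoglycans and other proteins outside the cell. The chromosome 9 cluster holds collagenases, stromelysins, a matrilysin, an elastase and the enamel protease. Mmp12 encodes the macrophage elastase, a main elastin-degrading enzyme of tissue macrophages, and Mmp8 encodes a collagenase best known from neutrophils. In many cell types, genes of the cluster are induced through AP-1, a dimer of Fos and Jun proteins, at their promoters.

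The promoters that carried the listed interactions are shown first, as RefSeq windows (GRCm38.p6, the assembly of mm10) that run from 250 bases before the TSS to 50 bases after it. Mmp3 is added as a member without a listed interaction. Capitals mark matches on either strand to AP-1 (TGANTCA), PU.1 (GAGGAAGT) and C/EBP (TTGCNNAA), binding motifs of factors active in macrophages. The windows shown lie on the plus strand.
Mmp12, first TSS, chr9:7344147-7344446: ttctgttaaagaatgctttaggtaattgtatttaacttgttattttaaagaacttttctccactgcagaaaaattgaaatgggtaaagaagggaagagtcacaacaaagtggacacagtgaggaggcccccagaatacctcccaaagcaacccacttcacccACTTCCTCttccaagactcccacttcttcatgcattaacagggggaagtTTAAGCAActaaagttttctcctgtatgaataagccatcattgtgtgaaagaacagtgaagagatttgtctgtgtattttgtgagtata
Mmp12, second TSS, chr9:7347124-7347423: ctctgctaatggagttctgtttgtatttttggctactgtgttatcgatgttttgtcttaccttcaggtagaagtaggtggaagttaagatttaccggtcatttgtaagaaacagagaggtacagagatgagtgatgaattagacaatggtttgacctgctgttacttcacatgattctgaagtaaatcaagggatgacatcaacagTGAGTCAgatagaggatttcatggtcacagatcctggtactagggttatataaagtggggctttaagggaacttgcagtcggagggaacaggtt
Mmp13, chr9:7272264-7272563: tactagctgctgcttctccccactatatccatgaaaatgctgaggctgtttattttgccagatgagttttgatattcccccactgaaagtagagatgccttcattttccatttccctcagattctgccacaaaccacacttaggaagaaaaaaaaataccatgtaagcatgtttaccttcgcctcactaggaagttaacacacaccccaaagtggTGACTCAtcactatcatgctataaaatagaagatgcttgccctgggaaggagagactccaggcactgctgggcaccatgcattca
Mmp8, chr9:7558179-7558478: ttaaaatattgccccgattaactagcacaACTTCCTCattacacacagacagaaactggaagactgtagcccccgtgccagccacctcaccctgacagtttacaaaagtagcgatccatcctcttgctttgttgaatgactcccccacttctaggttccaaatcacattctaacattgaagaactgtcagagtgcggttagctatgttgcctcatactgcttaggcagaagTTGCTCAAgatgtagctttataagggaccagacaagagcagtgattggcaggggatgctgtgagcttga
Mmp27, chr9:7571146-7571445: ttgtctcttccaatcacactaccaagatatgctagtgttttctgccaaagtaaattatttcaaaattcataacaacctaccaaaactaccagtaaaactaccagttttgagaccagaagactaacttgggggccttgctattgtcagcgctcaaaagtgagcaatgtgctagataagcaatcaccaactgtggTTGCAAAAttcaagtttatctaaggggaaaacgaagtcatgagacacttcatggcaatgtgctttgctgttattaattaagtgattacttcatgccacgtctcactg
Mmp3, chr9:7445572-7445871: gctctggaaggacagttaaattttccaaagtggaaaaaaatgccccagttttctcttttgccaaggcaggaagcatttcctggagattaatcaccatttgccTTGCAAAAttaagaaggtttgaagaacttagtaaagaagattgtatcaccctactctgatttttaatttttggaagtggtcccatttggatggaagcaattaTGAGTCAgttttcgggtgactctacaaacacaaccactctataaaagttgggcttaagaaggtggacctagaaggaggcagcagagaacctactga

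Over all members, AP-1 was the motif found in most promoter windows. It was present in 8 of the 12 RefSeq windows of the cluster (66.7%), against 7.85% of 31365 autosomal RefSeq promoters of the same length. The match began 35 bases before the TSS in Mmp13, 44 bases before the second TSS of Mmp12, 46 bases before the TSS in Mmp3, 63 bases in both Mmp10 and the first Mmp7 window, 73 bases in Mmp1a, 93 bases in Mmp1b and 95 bases in Mmp20. Mmp8 and Mmp27 had none, although both had listed interactions, and the first Mmp12 window and the second Mmp7 window had none. The PU.1 motif, of the factor that establishes the macrophage lineage, was in 3 of 12 windows (25.0% against 3.25% of all promoters). These were the first Mmp12 window (88 bases before the TSS), Mmp8 (221 bases) and the first Mmp7 window (109 bases). C/EBP motifs were in 6 of 12 windows (50% against 10.9%), those of Mmp3, Mmp8, Mmp10, Mmp27, the first Mmp7 TSS and the first Mmp12 TSS. The motifs of STAT6, the factor activated by IL-4 (TTC and GAA with 4 bases between), of EGR (GNGTGGGNG), of PPAR/RXR (a direct repeat of AGGTCA with 1 base between) and of CTCF had 0 matches in the 12 windows. They were in 6.97%, 14.3%, 0.0383% and 0.995% of all promoters. The windows were also lower in G and C, with a median of 41.7% against 53.0%. Mmp12 and Mmp7 each gave a first and a second window, and those of Mmp7 overlap. As the members also belong to a single gene family, the 12 windows are not independent. A match is a description of letters, and the presence of AP-1 motifs did not follow the listed interactions, since Mmp1b, Mmp3, Mmp1a, Mmp10, Mmp20 and Mmp7 had the motif and no interaction.

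Within the cluster, the listed contacts fell on Mmp12 and, in smaller number, on Mmp8, Mmp27 and Mmp13. At least 1 interaction was listed at the promoter bins of 4 of the 10 members, against 13101 of all 20755 genes (63.1%). Mmp12 had 14 interactions, Mmp8 had 3, Mmp27 had 2 and Mmp13 had 1, and the interaction between Mmp12 and Mmp8 counts for both. Mmp1b, Mmp3, Mmp1a, Mmp10, Mmp20 and Mmp7 had 0. Of all genes, 4463 (21.5%) had at least as many interactions as Mmp12, and the median gene had 2. The median over the 10 members was 0.

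**Figure D1:**
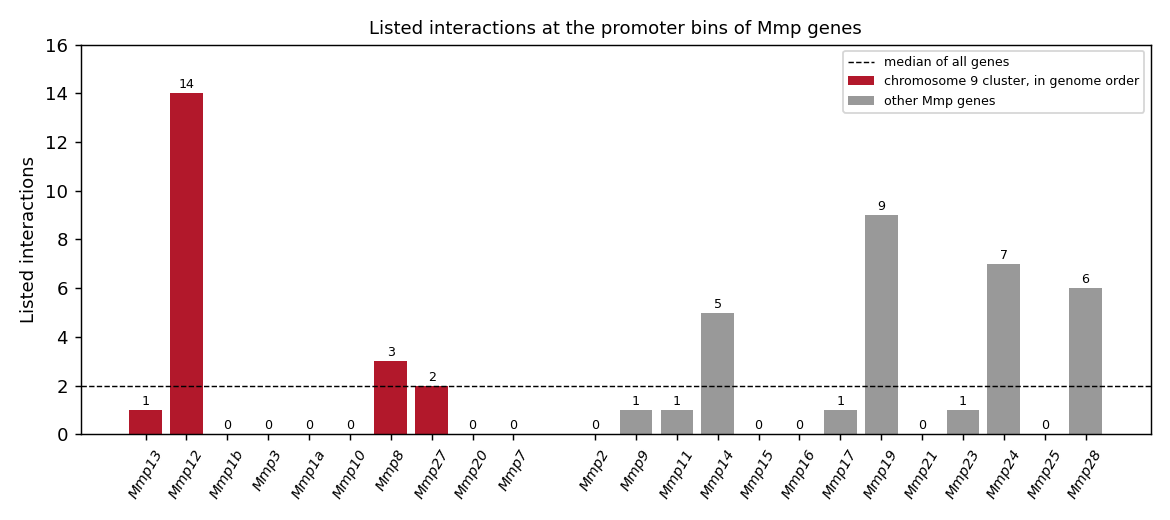
Number of listed interactions (vertical axis) at the promoter bins of the 10 cluster genes in genome order (red) and of the 13 other Mmp genes (grey), with the median of all genes, 2, as a dashed line. Mmp12 has 14, no other cluster gene has more than 3, and 6 cluster genes have 0.

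All 19 interactions had a member promoter bin at 1 end, and none joined only non-promoter bins inside the cluster. They fell in 7 clusters of neighbouring bin pairs, of which 2 were single bin pairs. Some of these clusters also held listed pairs without a member promoter bin. Observed counts ran from 11 to 34 (median 20), expected counts from 2.04 to 9.30 (median 5.36), ratios from 2.34 to 6.06 (median 3.74) and distances from 50 to 385 kb (median 210 kb). Summed over the 19, 401 read pairs were observed and 101 were expected. Over the whole list the medians were 27 observed, 8.74 expected, a ratio of 3.11 and 185 kb. Because the ratio depends on distance, each interaction was set beside all listed interactions at the same distance. The ratio was above that median in 17 of the 19, whereas the observed count was below it in 17 and the expected count in 18. Pairs are listed only below an FDR limit, so a pair with a low expected count needs a higher ratio to be listed. The high ratios and the low expected counts are therefore not separate results. The Poisson interval began above the median of the distance in 5 of the 19, all of them at Mmp12. The cluster entered the list at low counts, and most ratios were not separated from the median of their distance by counting error.

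**Figure D2:**
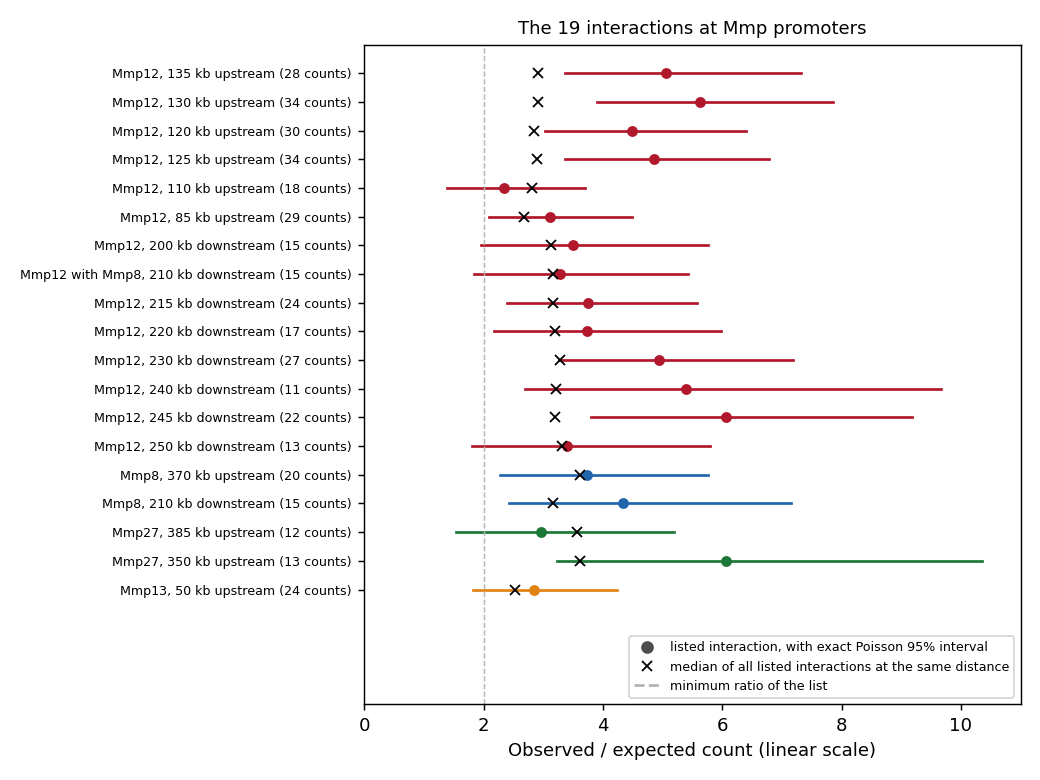
Observed over expected count (horizontal axis, linear) for each of the 19 interactions, grouped by member gene, with exact Poisson 95% intervals as bars and the median of all listed interactions at the same distance as a cross. The dashed line is the minimum ratio of the list, 2. The 4 Mmp12 contacts at 120 to 135 kb upstream and the one at 245 kb downstream have intervals that begin above the cross.

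Mmp12, the macrophage elastase gene (chr9:7344381-7369499, plus strand), has protein-coding TSSs in 2 neighbouring bins. The bin of the second TSS, chr9:7345001-7350000, had 13 interactions, more than any other bin of the cluster, and the bin of the first TSS, chr9:7340001-7345000, had 1. With only the outermost TSS counted, Mmp12 therefore had 1 interaction, and with 1 interaction kept per cluster it had 2. Over the 14 interactions, 317 read pairs were observed against 77.1 expected, and the median ratio was 4.11. Partner bins lay in 2 groups, 6 interactions upstream and 8 downstream.

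Upstream, Mmp12 was joined over 85 to 135 kb to the stretch without protein-coding genes before Mmp13, with 18 to 34 read pairs and a median ratio of 4.67. The contact with chr9:7215001-7220000 had 34 read pairs and a ratio of 5.62 (3.89 to 7.86, FDR = 4.39e-14). The next bin, chr9:7220001-7225000, had 34 read pairs with the second TSS bin (ratio 4.85, 3.36 to 6.78, FDR = 1.08e-12) and 30 with the first (4.48, 3.03 to 6.40, FDR = 3.35e-10). These were the 3 highest counts of the 19. Chr9:7210001-7215000 had 28 read pairs (5.06, 3.36 to 7.32). Closer to the gene, chr9:7260001-7265000 had 29 (3.12, 2.09 to 4.48) and chr9:7235001-7240000 had 18 (2.34, 1.39 to 3.70, FDR = 0.00426), the lowest ratio of the 19. All of these bins are intergenic with respect to protein-coding genes, and non-coding genes were not examined. The intervals of the 4 contacts at chr9:7210001-7225000 overlap one another, so their order is not separated by counting error.

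Downstream, Mmp12 passed over Mmp1b, Mmp3, Mmp1a and Mmp10 and was joined over 200 to 250 kb to bins around Mmp8 and Mmp27, with 11 to 27 read pairs and a median ratio of 3.74. The strongest partner was the intergenic bin chr9:7590001-7595000 beyond Mmp27, with 22 read pairs and a ratio of 6.06 (3.80 to 9.18, FDR = 4.14e-10), the highest of the 19. The bin before it, chr9:7585001-7590000, had 11 read pairs and a ratio of 5.40 (2.69 to 9.66), and the bin after it, chr9:7595001-7600000, had 13 and 3.39 (1.80 to 5.79). The exonic Mmp27 bin chr9:7575001-7580000 had 27 read pairs with Mmp12, the most of the downstream partners, and a ratio of 4.94 (3.26 to 7.19, FDR = 3.45e-10). In Mmp8, the TSS bin chr9:7555001-7560000 had 15 read pairs (3.28, 1.84 to 5.42, FDR = 0.000357), and the exonic bins behind it had 24 (3.74, 2.40 to 5.57) and 17 (3.74, 2.18 to 5.98). The intergenic bin before Mmp8, chr9:7545001-7550000, had 15 (3.50, 1.96 to 5.77). The intervals of all 8 overlap.

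No partner of Mmp12 lay nearer than 85 kb. Among the 5666 genes with at least 10 interactions, the median nearest partner was at 10 kb, and for 614 (10.8%) it was at least as far as for Mmp12. The macrophage gene Csf1r, the M-CSF receptor, also had 14 interactions, but with up to 361 read pairs, against up to 34 at Mmp12. These maxima are not matched for distance.

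**Figure D3:**
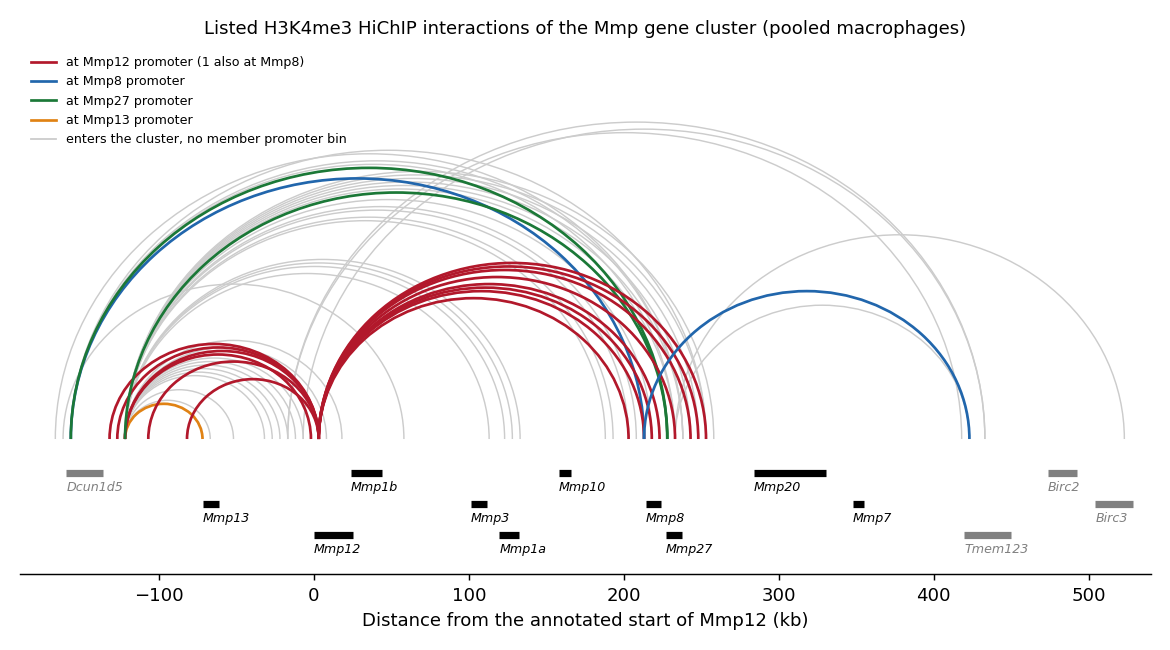
Arcs join the midpoints of paired 5-kb bins, placed by distance from the annotated start of Mmp12 (horizontal axis, kb), with genes below (cluster genes black, flanking genes grey). The arc height follows the distance between bins and not the count. Coloured arcs are the 19 interactions at member promoters, and grey arcs are the 35 that enter the cluster without a member promoter bin. The Mmp12 arcs form 2 fans, at 85 to 135 kb upstream and 200 to 250 kb downstream, and no arc ends at Mmp1b, Mmp10, Mmp20 or Mmp7.

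The collagenase genes Mmp8 and Mmp13 had fewer contacts. Mmp8 (chr9:7558456-7568485, plus strand) had 3 interactions with 50 read pairs against 13.4 expected. Besides the contact with Mmp12, the only interaction that joined promoter bins of 2 members, its TSS bin was joined to chr9:7185001-7190000, an exonic bin at the start of Dcun1d5, 370 kb upstream (20 read pairs, ratio 3.73, 2.28 to 5.76, FDR = 5.70e-06). It was also joined to chr9:7765001-7770000, an exonic bin at the start of Tmem123, 210 kb downstream (15 read pairs, 4.33, 2.42 to 7.14, FDR = 1.69e-05). Dcun1d5 encodes a cofactor of cullin neddylation, and Tmem123 a transmembrane protein of the cell surface. The TSSs of both genes lie in the neighbouring bin, 450 and 960 bases away. By the rule used here, 0 interactions therefore joined a member promoter bin with a promoter bin of another gene, and 3 did when promoter bins were widened by 2500 bp. Mmp13 (chr9:7272514-7283331, plus strand) had 1 interaction, with the intergenic bin chr9:7220001-7225000 at 50 kb (24 read pairs, ratio 2.84, 1.82 to 4.23, FDR = 5.33e-05).

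Mmp27 (chr9:7571396-7581885, plus strand) had 2 interactions, both far upstream. With chr9:7220001-7225000, 350 kb away, 13 read pairs were observed against 2.15 expected, a ratio of 6.05 (3.22 to 10.4, FDR = 1.94e-06), the second highest of the 19. This pair fell in a cluster of 12 bin pairs. The same cluster held the stronger contact of chr9:7220001-7225000 with the intergenic bin chr9:7590001-7595000 (45 read pairs, ratio 19.6). With the Dcun1d5 bin chr9:7185001-7190000, 385 kb away, there were 12 read pairs (2.97, 1.53 to 5.18, FDR = 0.00332). The 3 bins of the Mmp27 gene held 10 interactions, the 2 at the TSS bin included. With promoter bins widened by 5000 bp Mmp27 had 8 interactions, and at an FDR below 1e-06 or counts of at least 20 it had 0. The exonic bin chr9:7575001-7580000 had 5, the most in the cluster after the Mmp12 bin.

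The remaining collagenases Mmp1a and Mmp1b, mouse relatives of the human interstitial collagenase gene, the stromelysins Mmp3 and Mmp10, the matrilysin Mmp7 and the enamel protease Mmp20 had 0 interactions at their promoter bins. The annotation classes Mmp1a as a polymorphic pseudogene with a protein-coding transcript. For Mmp1b, Mmp10, Mmp20 and Mmp7, no bin of the gene body was in the list either. One exonic bin of Mmp3 had 1 interaction and 3 exonic bins of Mmp1a had 1 each, with 9 to 12 read pairs, all with chr9:7220001-7225000. With promoter bins widened by 2500 bp, Mmp1a had 1 interaction and Mmp1b, Mmp3, Mmp10, Mmp20 and Mmp7 still had 0. Of the 86 bins of the cluster, 32 were in any listed interaction and 54 were in none. The unlisted stretches included chr9:7365001-7400000 with the Mmp1b promoter, chr9:7405001-7455000 with the Mmp3 promoter, chr9:7480001-7530000 with Mmp10 and the 95 kb of chr9:7605001-7700000 with Mmp20 and Mmp7. A bin outside the list is not shown to lack contacts, because pairs in which neither bin has an H3K4me3 peak were not tested and weak pairs were not listed. MboI sites (GATC), at which the chromatin was cut, numbered 8 to 13 in the promoter bins with interactions (median 10) and 8 to 15 in those without (median 13). The median repeat content was 27.9% in those with interactions and 25.5% in those without. The part of these values in the listing was not tested.

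Of the flanking bins examined, an intergenic bin with the most interactions into the cluster was chosen for description. Chr9:7220001-7225000, 47.5 kb before the Mmp13 TSS and 11.8 kb after the end of Dcun1d5, had 33 interactions, and 29 of them ended in the cluster. Of the 129619 bins in the list, 1.23% had at least as many interactions, and the median bin had 2. Because the bin was chosen for its high number, this rank is a description only. Of the 29, 4 ended at member promoters (2 at Mmp12, 1 each at Mmp13 and Mmp27) and 25 at other bins, with ratios of 2.57 to 19.6 (median 4.17). The highest ratio was with chr9:7590001-7595000, 370 kb away, where 45 read pairs were observed against 2.29 expected (ratio 19.6, 14.3 to 26.3, FDR = 2.84e-40). It was followed by chr9:7545001-7550000, with 29 read pairs and a ratio of 11.6 (7.79 to 16.7). Both bins were also partners of Mmp12. In the body of Mmp12, chr9:7350001-7355000 had 45 read pairs with this bin and a ratio of 5.95 (4.34 to 7.97), and the intergenic bin chr9:7325001-7330000 before the gene had 31 and 6.74 (4.58 to 9.57).

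The stretch around Mmp8 and Mmp27 that held the downstream partners of Mmp12 was also reached by other distal bins. Of the 8 downstream partner bins of Mmp12, all within the 55 kb of chr9:7545001-7600000, 6 were also partners of chr9:7220001-7225000, which reached 9 of the 11 bins of that stretch. The Dcun1d5 bin chr9:7185001-7190000 reached 5 bins of the cluster, all among the same 11, and 3 of them were Mmp12 partners. For both bins, the share reached was no higher among the 8 Mmp12 partners than over the 11 bins of the stretch. Its contact with the exonic Mmp27 bin chr9:7575001-7580000 had 43 read pairs and a ratio of 6.47 (4.68 to 8.71, FDR = 1.06e-19). Chr9:7575001-7580000 and chr9:7595001-7600000 were partners of all 3. In the other direction, the same Mmp27 bin was joined to the Tmem123 bin chr9:7765001-7770000 (24 read pairs, 5.01, 3.21 to 7.46) and to an intronic bin of Birc3, which encodes an inhibitor-of-apoptosis ubiquitin ligase, 290 kb downstream (21 read pairs, 5.41, 3.35 to 8.27). Neighbouring bin pairs share reads of the same chromatin stretch and are not independent. Pairs of these distal bins can be listed only where at least 1 of them holds an H3K4me3 peak.

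**Figure D4:**
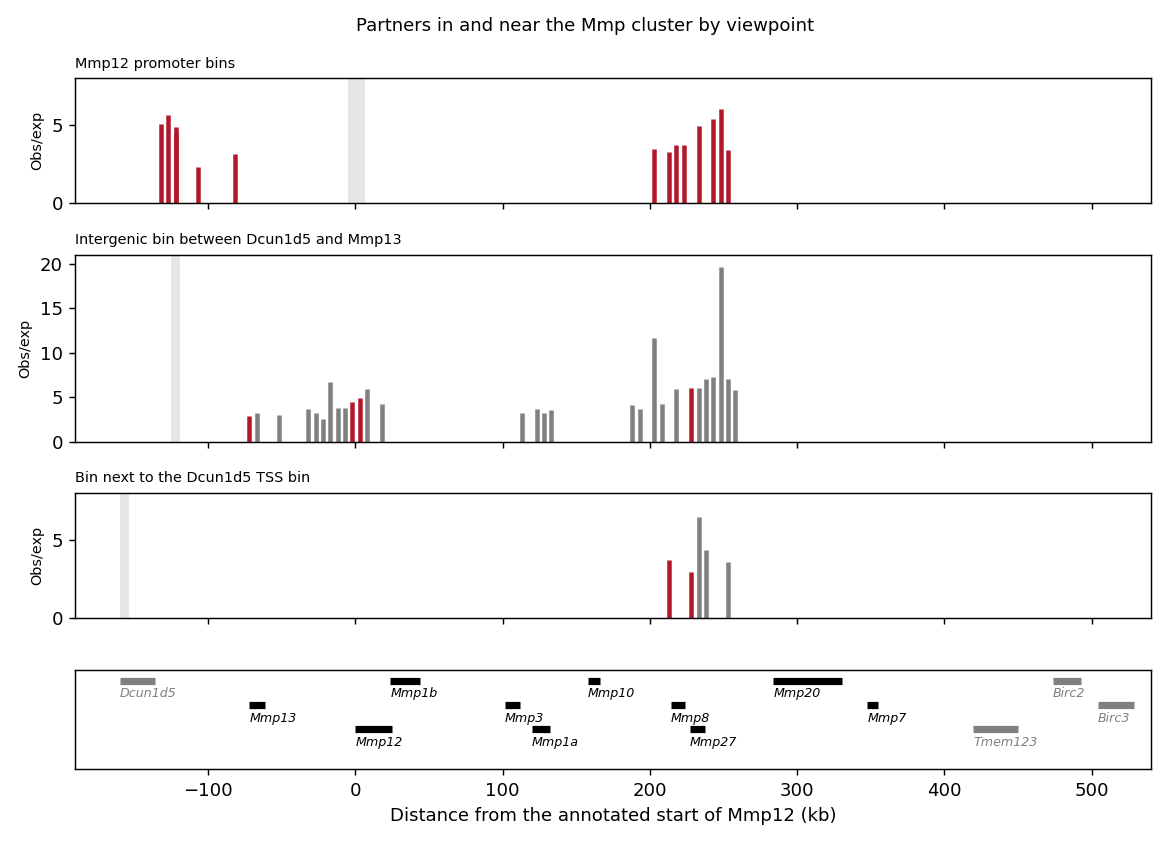
Observed over expected count (vertical axes, linear, scaled separately) of each listed partner in the cluster or reaching it, by distance from the annotated start of Mmp12 (kb), seen from the Mmp12 promoter bins (top), the intergenic bin between Dcun1d5 and Mmp13 (under it) and the bin next to the Dcun1d5 TSS bin (below it). Shading marks the viewpoint and red marks pairs with a member promoter bin. All 3 viewpoints have partners around Mmp8 and Mmp27, where the intergenic bin reaches a ratio of 19.6.

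The bins of the pair with the ratio of 19.6 are shown at their matches to the motif of STAT6, the factor activated by IL-4. Not shown are their AP-1 matches (3 before Mmp13 and 2 after Mmp27) and C/EBP matches (3 and 4). Since only 6.97% of all promoters had a STAT6 match, 0 in the 12 member windows does not set the members apart. A part of STAT6 or IL-4 in these contacts was not tested. Capitals mark the motif, with 15 bases on each side (GRCm38.p6, plus strand).
Intergenic bin before Mmp13, chr9:7222019-7222058: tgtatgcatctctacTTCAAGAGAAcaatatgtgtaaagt
Intergenic bin before Mmp13, chr9:7222381-7222420: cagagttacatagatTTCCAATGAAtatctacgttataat
Intergenic bin after Mmp27, chr9:7593381-7593420: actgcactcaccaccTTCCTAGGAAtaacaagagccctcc
Intergenic bin after Mmp27, chr9:7593739-7593778: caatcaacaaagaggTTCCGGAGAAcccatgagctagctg
Such matches are common at this length. STAT6 motifs were in 77.8% of the 24207 bins of chromosome 9, AP-1 motifs in 78.2% and C/EBP motifs in 89.3%, so their presence in a bin sets it apart little. CTCF, the factor whose motifs often flank chromatin loops, had 3 matches in the cluster, at chr9:7292328, chr9:7409655 and chr9:7491722, all on the plus strand. None lay in a bin of the 19 interactions, and 2.89% of chromosome 9 bins held a match. The bin of the first, chr9:7290001-7295000, was a listed partner of chr9:7220001-7225000 (27 read pairs, ratio 2.95, 1.94 to 4.29). The bins of the others, chr9:7405001-7410000 and chr9:7490001-7495000, had 0 listed interactions. In the flanks examined, a further match lay at chr9:7897738 on the minus strand.

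Among the 13 Mmp genes on other chromosomes, 8 had at least 1 interaction, a share near the 63.1% of all genes. Their median was 1, against 2 over all genes. Mmp19 had 9, Mmp24 7, Mmp28 6 and Mmp14, the membrane-type metalloproteinase that activates pro-Mmp2, 5. Mmp9, Mmp11, Mmp17 and Mmp23 had 1 each, and Mmp2, Mmp15, Mmp16, Mmp21 and Mmp25 had 0. Among the inhibitors, Timp4 had 3, Timp2 and Reck 1 each and Timp3 0. Among activating proteases and genes of the plasmin system, Furin, a convertase that cleaves some pro-Mmps, had 60 and Plg, the plasminogen gene, had 1, and Plau, Plaur and Plat had 0.

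Of 7 genes that flank the cluster, 5 had interactions, a share near the 63.1% of all genes. Birc2 had 10 interactions, Dync2h1 6, Birc3 4 and Dcun1d5 and Tmem123 3 each, and Pdgfd and Yap1 had 0. Dync2h1 and Dcun1d5 share the bin chr9:7180001-7185000, so its interactions count for both. As a check of the labelled cell type, 8 of 8 macrophage markers had interactions, beside 63.1% of all genes (Csf1r 14, Adgre1 25, Cd68 4, Itgam 1, Spi1 36, Mertk 42, Cd14 11 and Lyz2 13; median 13.5). Of 7 markers of other cells, 3 had any (S100a8 3, Elane 2, Ms4a1 1), and Cd3e, Cd79a, Epcam and Col1a1 had 0 (median 0).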

How the data were processed

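H3K4me3 HiChIP reads of 4 BMDM samples (2 with IL-4, 2 basal, called biological replicates per the labels) were aligned to mm10 (the submitters' processing notes name Bowtie2 and bedtools), and the authors ran MAPS on the merged reads at 5000 bp, anchored on H3K4me3 ChIP-seq peaks. Its model predicts counts from distance and bin properties such as restriction sites, GC content and mappability. The deposited values are observed counts of read pairs, expected counts of the authors' model and FDRs, which are adjusted p-values of the authors (below 0.01, and below 0.0001 for clusters of 1 bin pair). All ratios were at least 2 and only autosomes were listed. All columns used are pooled over the samples, so no test between conditions was made, and the precision rests on the observed counts.

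Promoter bins held a TSS of a protein-coding transcript of the GENCODE M21 basic set. Distances are between bin starts, and bins are given from base 1 in mm10. Exon, intron and intergenic refer to protein-coding genes. Motifs were counted on both strands, and a site matched on both counted once. RefSeq promoters of GRCm38.p6 were matched by symbol for all 10 members (12 windows). The functions were checked on simulated lists. Members, gene lists and motifs were chosen with earlier results of these data known, and some listed genes are not reported here. The genes named are the members, the flanking genes and the listed families, and the interactions with the 5 highest ratios and counts. Alternatives changed the FDR, count, ratio, distance and cluster limits and the definition of a promoter. Python 3.11.15, numpy 2.4.6, pandas 2.3.3, scipy 1.17.1 and matplotlib 3.10.9 were used.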

Additional observations from a re-analysis of the deposited data

How the results depend on the processing

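Of the 19 interactions, 7 remained at an FDR below 1e-06, 10 at observed counts of at least 20, 9 at ratios of at least 4 and 3 with 1 interaction kept per cluster, and the same numbers held for member promoter bins. With both bins inside the cluster, 8 became 3, 3, 3 and 1 under these settings. Members with an interaction numbered 1 at the stricter FDR and 2 with 1 interaction per cluster, and the Mmp12 to Mmp8 pair was lost under all of these settings (0) and with only the outermost TSS (0). Member promoter bins held 31 interactions with a TSS within 5000 bp, which is also the count for the cluster, and 7 with only the outermost TSS. Pairs joining 2 members were 3 and 4 with a TSS within 2500 and 5000 bp, and pairs with a promoter bin of another gene were 3 and 6. Other Mmp genes with an interaction numbered 5, 3 and 5 at the stricter FDR, at ratios of at least 4 and with 1 interaction per cluster. The median ratio moved by less than 1.5 times throughout. Mmp12 had the most interactions of the members under 9 of 10 alternatives, with 1 (outermost TSS) to 17. These changes follow from how many pairs or bins each setting admits. No paired analysis was possible because the list pools the replicates, and no replicate could be left out. The low counts, 11 to 34 read pairs, limit any ranking of the interactions.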

Other observations

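A further 14 listed interactions passed over the whole cluster without touching it. They joined bins of Dync2h1, Dcun1d5 and the intergenic stretch behind it to bins from just before Tmem123 through Birc2 and Birc3 and beyond. Dync2h1 encodes a dynein heavy chain of cilia, and Birc2 and Birc3 encode inhibitor-of-apoptosis ubiquitin ligases. The intergenic bin chr9:7220001-7225000, with 29 interactions into the cluster, had 2 past it, with the Birc3 TSS bin chr9:7870001-7875000 (17 read pairs, ratio 3.40, exact Poisson 95% interval 1.98 to 5.45) and with an exonic Birc3 bin (10 read pairs, 5.66, 2.72 to 10.4). The Dcun1d5 bin chr9:7185001-7190000 had 25 read pairs with the Birc3 TSS bin, at a ratio of 2.19 (1.42 to 3.23). The longest pair, 825 kb, joined the bin of the Dcun1d5 TSS to the intergenic bin chr9:8005001-8010000 (18 read pairs, 5.88, 3.49 to 9.30). Another 3 pairs started inside the cluster, in the intergenic bins chr9:7325001-7330000 and chr9:7335001-7340000 before Mmp12, and reached Tmem123 bins 435 to 450 kb away with 8 to 14 read pairs. The Mmp12 promoter bins themselves had no listed partner beyond Mmp7.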
